A study of Mus musculus with 4 samples.

Results

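The genes that encode the nuclear subunits of the mitochondrial respiratory chain and the ATP synthase were followed in 4 clones of the mouse plasmacytoma line J558. They were taken as every probe set with a single platform symbol starting with Ndufa, Ndufb, Ndufc, Ndufs, Ndufv, Sdha, Sdhb, Sdhc, Sdhd, Uqcr or Atp5, or with Cox followed by 4, 5, 6, 7 or 8 and a letter, leaving out the Ndufaf assembly factors, and each gene was represented by its probe set with the highest mean log2 signal. This gave 86 of 18193 measured genes, on 175 probe sets, of which 36 belonged to complex I, 8 to complex II, 8 to complex III, 17 to complex IV and 17 to complex V. The complex II set of the rule holds 4 assembly factors, Sdhaf1, Sdhaf2, Sdhaf3 and Sdhaf4, beside the 4 subunits.

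J558 is an IgA-secreting BALB/c plasmacytoma line. In the AID-silenced clones, a vector carrying a sequence against activation-induced cytidine deaminase (AID), the enzyme that starts antibody class switching and hypermutation, had been introduced together with a neomycin resistance vector. The control clones carried the empty silencing vector with the same resistance vector, and all clones were selected with G418. There were 2 AID-silenced and 2 control clones, 1 of each in pair 1 and in pair 2, and RNA of each clone was hybridised to 1 Affymetrix mouse genome array. The labels do not say what ties the clones of a pair together. Each sample is a single selected clone, so differences between clones and effects of the silencing vector are both in every comparison.

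Complex I (NADH dehydrogenase) and complex II (succinate dehydrogenase) pass electrons to coenzyme Q, complex III passes them on to cytochrome c, and complex IV (cytochrome c oxidase) gives them to oxygen. Complexes I, III and IV pump protons across the inner mitochondrial membrane, and the ATP synthase, complex V, uses the gradient to make ATP. Most subunits are encoded in the nucleus. Several subunits of complex IV exist in a form found in most tissues and another form found mainly in heart and skeletal muscle or in testis. Plasma cells, which secrete large amounts of antibody, use oxidative phosphorylation for part of their ATP.

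The values are MAS5 signals, scaled so that the trimmed mean of each array was 500, and differences were taken on the log2(signal + 16) scale. Probe sets with a mean signal of about 49.4 or more, the upper 0.5 of the array, were tested. The number of arrays limits the precision of every value. All 9 measured plasma cell markers, such as Sdc1, Xbp1 and Irf4, exceeded that signal on all 4 arrays. Of 4 mature B cell, 5 myeloid, 5 stromal and 6 brown fat and muscle markers, 2, 2, 1 and 1 did. Of 5 T cell markers 0 did, and 2 lay at or below it on all arrays. The T cell antigen receptor gene Cd3d lay at 12.1 and 6.3 in AID-silenced clones and at 2.4 and 2.2 in control clones. Cd8a, another T cell marker, had 33.6 and 84.4 in AID-silenced clones, against 72.4 and 85.2 in control clones. Because RNA was taken from whole cultures, fewer cells of a kind and less RNA per cell cannot be told apart. Of the 86 genes, 80 passed the signal filter. The 6 that did not were Ndufb4, Cox4i2, Cox6b2, Cox7a1, Cox7b2 and Cox8b. The 1 single-symbol probe set for Ndufb4 gave signals of 33.6 and 38.2 in AID-silenced clones and 28.9 and 29.6 in control clones, and brighter probe sets that the annotation assigns to several near-identical copies of that gene were not used as members.

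The RefSeq promoter table of build GRCm38.p6 matched 71 of the 86 genes, with windows of 250 bases before and 50 bases after the annotated start. Binding motifs of transcription factors known for driving respiratory chain genes were searched on both strands, as GCGCA, any base and GCGC for NRF1, CCGGAAG for the ETS family to which GABP belongs, and AANATGGCG for YY1. The NRF1 letters occurred in 16 of 71 windows (22.5%), against 11.9% of the 8527 windows of all tested genes and 4.78% of all 27025 windows. The ETS letters occurred in 26.8% of the windows, against 20.4% of tested genes and 9.12% of all windows, and the YY1 letters in 11.3%, against 6.07% and 2.51%. A match of letters is a description and does not show binding.

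The 250 bases before the start of 4 genes are shown on the minus strand, read 5′ to 3′. Cox6a1, Sdhd and Cox8a passed the signal filter, and only Cox8b did not. Capitals mark the letters of NRF1 and ETS. The Cox6a1 window (chr5:115348959-115349208) precedes the gene for the general form of subunit 6a of complex IV and holds 2 NRF1 matches and 1 ETS match. The Sdhd window (chr9:50603850-50604099), of a membrane anchor of complex II, holds 1 of each. The windows of Cox8a (chr19:7217617-7217866) and Cox8b (chr7:140900447-140900696), the general and the heart and muscle forms of subunit 8, hold none in the printed 250 bases, and the 50 bases after the start, not shown, bring Cox8a to 2 ETS matches and Cox8b to 0. The observed over expected frequency of CG dinucleotides in the full window was 0.842 for Cox8a and 0.115 for Cox8b, and the median of the 71 genes was 0.807.
Cox6a1: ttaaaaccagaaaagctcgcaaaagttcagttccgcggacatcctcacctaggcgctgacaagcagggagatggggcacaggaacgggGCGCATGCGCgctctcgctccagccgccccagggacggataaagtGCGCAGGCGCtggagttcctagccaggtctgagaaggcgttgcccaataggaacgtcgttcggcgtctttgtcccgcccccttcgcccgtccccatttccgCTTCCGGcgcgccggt
Sdhd: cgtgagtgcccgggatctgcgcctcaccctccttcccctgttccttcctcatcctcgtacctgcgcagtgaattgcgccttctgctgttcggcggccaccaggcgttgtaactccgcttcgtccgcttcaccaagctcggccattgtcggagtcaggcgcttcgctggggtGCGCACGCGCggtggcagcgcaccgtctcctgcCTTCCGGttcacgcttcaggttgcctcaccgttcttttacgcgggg
Cox8a: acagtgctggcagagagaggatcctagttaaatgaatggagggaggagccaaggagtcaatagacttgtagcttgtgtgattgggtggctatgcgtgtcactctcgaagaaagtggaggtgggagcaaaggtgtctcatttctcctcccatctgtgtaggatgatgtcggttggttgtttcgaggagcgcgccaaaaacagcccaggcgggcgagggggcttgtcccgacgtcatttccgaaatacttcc
Cox8b: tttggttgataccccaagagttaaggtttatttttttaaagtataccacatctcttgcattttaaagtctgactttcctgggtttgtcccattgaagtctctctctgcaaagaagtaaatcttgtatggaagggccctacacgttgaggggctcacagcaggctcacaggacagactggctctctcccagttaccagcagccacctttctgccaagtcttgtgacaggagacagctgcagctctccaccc

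The first comparison asked whether respiratory chain and ATP synthase genes differed between AID-silenced and control clones. None of the 80 tested genes passed a limma adjusted p of 0.05, with or without the pair as a block, and the smallest adjusted p was 0.9996 without the block and 0.565 with it. Among all 10475 tested genes 0.0191% were called without the block and 0.0573% with it. At an unadjusted p under 0.05 there were 0 of the 80 genes, against 3.89% of all tested genes (2.22% higher and 1.66% lower). The median difference, AID-silenced minus control, was 0.06 log2 units (0.02 in pair 1 and 0.09 in pair 2), against -0.0048 for all tested genes. It was -0.016 with AID-silenced replicate 2 left out. That clone had the highest signal of the 4 for 34 of the 80 genes, against 20.2% of all tested genes.

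The differences were small in both directions, and in 18 of the 19 named genes with a largest difference they moved by over 1.5 times with 1 clone left out. The mean difference of 76 of the 80 genes (95.0%) was smaller than 0.32 log2 units, against 70.3% of all tested genes, and none reached 2-fold, against 3.19%. Among genes with mean signals between 2772 and 18904, the range of the middle 80% of the tested respiratory genes, 61 of 64 respiratory genes (95.3%) and 82.2% of all 1769 genes differed by less than 0.32 log2 units. The standard deviation of the mean difference over genes was 0.15 log2 units for the respiratory genes in this range and 0.30 for all genes in it.

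In 22 genes the AID-silenced clone was higher in both pairs and in 12 it was lower in both, against 26.7% and 27.5% of all tested genes, and 46 went in opposite directions. The signals of the 2 groups did not overlap for 10 genes that were higher and 4 that were lower in AID-silenced clones, against 14.3% and 14.4% of all tested genes. Both counts lay below or near the share in all genes.

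**Figure D1:**
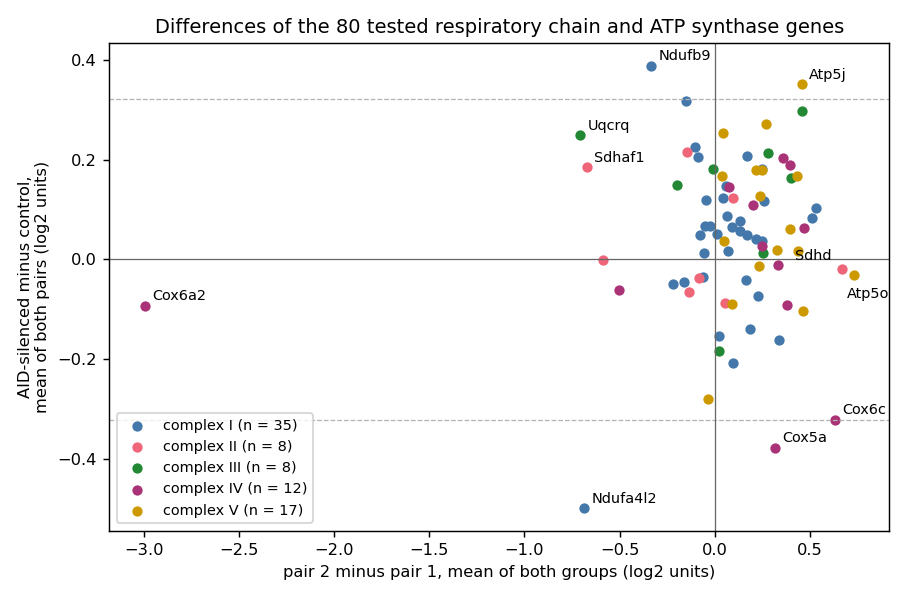
Each point is 1 of the 80 tested genes, coloured by complex, with the mean pair 2 minus pair 1 difference on the horizontal axis and the mean AID-silenced minus control difference on the vertical axis, both in log2 units. Dashed lines mark 0.32 log2 units, within which 76 genes lie on the vertical axis, and Cox6a2 stands alone at -2.99 on the horizontal axis.

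In complex I, 8 of 35 tested genes were higher and 7 lower in the AID-silenced clone of both pairs. Ndufv3, a small accessory subunit of the NADH-oxidising arm, had signals of 10709 and 9055 in AID-silenced clones, against 8056 and 7744 in control clones. Its groups did not overlap, and the log2 difference was 0.32 ± 0.19 (SE, n = 2 per group, limma adjusted p = 0.9996). Ndufa10, an accessory subunit, had 10854 and 11610 in AID-silenced clones, against 12572 and 13385 in control clones. Here too the groups did not overlap, with the AID-silenced clones lower (-0.21 ± 0.18). Ndufa3, an accessory membrane subunit, had 4036 and 4086 in AID-silenced clones, against 3764 and 3207 in control clones, a difference of 0.22 ± 0.20.

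Ndufa4l2, a hypoxia-induced relative of Ndufa4, gave the largest absolute difference of the tested genes. Its signals were 186 and 81.2 in AID-silenced clones, against 205 and 161 in control clones, so the groups overlapped. The log2 difference was -0.50 ± 0.43, with limma adjusted p = 0.9996, and it was 0.03 with AID-silenced replicate 2 left out. Ndufa4, which is now counted as a subunit of complex IV, had 9387 and 11212 in AID-silenced clones, against 10075 and 11563 in control clones.

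In complex II, 2 of the 8 genes were higher and 2 lower in the AID-silenced clone of both pairs. Sdhb, the iron-sulfur subunit, had signals of 12320 and 12515 in AID-silenced clones, against 10750 and 12086 in control clones, a difference of 0.12 ± 0.18. Sdha, the flavoprotein subunit that oxidises succinate, had 5568 and 5696 in AID-silenced clones, against 5839 and 6136 in control clones, a difference of -0.09 ± 0.19. Neither gene's groups overlapped, but both differences were smaller than their standard errors. The 3 tested probe sets of Sdha disagreed in sign, with differences from -0.36 to 0.57, the positive one at signals of at most 84.3. The assembly factor Sdhaf4, which acts on the flavinated Sdha, was higher by 0.22 ± 0.20, and Sdhaf2, which helps to attach the flavin to Sdha, differed by -0.04 ± 0.23.

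In complex III, 2 of 8 genes were higher and 0 lower in the AID-silenced clone of both pairs. Uqcrh, the hinge protein that holds cytochrome c1, had signals of 8789 and 13468 in AID-silenced clones, against 7971 and 9824 in control clones (0.30 ± 0.26). Uqcrq, a small membrane subunit, had 15233 and 10215 in AID-silenced clones, against 14029 and 7848 in control clones (0.25 ± 0.33). In both genes the groups overlapped. The 3 tested probe sets of Uqcrq disagreed, with AID-silenced minus control differences from -0.87 to 0.25, the negative ones at probe sets with signals of at most 193.

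In complex IV, 1 of 12 tested genes was higher and 3 were lower in the AID-silenced clone of both pairs. Cox5a, a subunit on the matrix side, had signals of 12681 and 14854 in AID-silenced clones, against 15509 and 20515 in control clones. The groups did not overlap, and the difference was -0.38 ± 0.21 (SE, n = 2 per group, limma adjusted p = 0.9996). It had the same sign at all 3 of its tested probe sets, from -0.38 to -0.10. Cox6a1 differed by 0.11 ± 0.18, Cox6b1 by -0.01 ± 0.22 and Cox7a2l by -0.06 ± 0.27.

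In complex V, 9 of 17 genes were higher and 0 lower in the AID-silenced clone of both pairs. Atp5j, coupling factor 6 of the stalk, had signals of 12429 and 15846 in AID-silenced clones, against 9046 and 13378 in control clones. The groups overlapped, and the difference was 0.35 ± 0.25 (SE, n = 2 per group, limma adjusted p = 0.9996). It was 0.07 without control replicate 1 and 0.63 without control replicate 2. Atp5k, the e subunit of the membrane part, had 11083 and 15161 in AID-silenced clones, against 10410 and 11077 in control clones, and Atp5l, the g subunit, had 7192 and 8560 in AID-silenced clones, against 6961 and 6224 in control clones. Both were just separated, with differences of 0.27 ± 0.22 and 0.25 ± 0.20, which were 0.05 and 0.13 without AID-silenced replicate 2. Atp5a1, the alpha subunit that forms the catalytic head with the beta subunit, differed by 0.18 ± 0.20, and by 0.0029 without that clone. The median difference of complex V was -0.04 with AID-silenced replicate 2 left out and 0.26 with AID-silenced replicate 1 left out, so 1 clone decided its sign.

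The second comparison set the clones of pair 2 against those of pair 1. None of the 80 genes passed a limma adjusted p of 0.05, with or without the group as a second term, against 0% and 0.00955% of all tested genes. An unadjusted p under 0.05 was reached by 20 genes, 15 higher and 5 lower in pair 2, against 5.32% of all tested genes higher and 10.2% lower. A difference of 2-fold or more was seen in 1 gene, Cox6a2, against 5.36% of all tested genes. With the deposited scaling, 42 genes were higher in both pair 2 clones and 15 lower in both, against 26.4% and 38.5% of all tested genes. The pairs did not overlap for 34 genes that were higher and 12 that were lower in pair 2, against 19.5% and 29.3%. Genes of like brightness came closer. Among those with mean signals between 2772 and 18904, 32 of the 64 respiratory genes and 45.8% of all 1769 genes were higher in both pair 2 clones, and 15.6% and 23.5% were lower. In this range, 17.2% of respiratory genes and 13.8% of all genes were higher at an unadjusted p under 0.05 (4.69% and 5.88% lower), and 37.5% and 36.6% were higher without overlap (10.9% and 16.1% lower).

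The direction of this shift depended on the scaling and moved with brightness. The median difference of the 80 genes, pair 2 minus pair 1, was 0.11 log2 units, against -0.07 for all tested genes. It was 0.15 after median scaling, but -0.02 after quantile normalisation, where 25 genes were higher and 26 lower in both pair 2 clones. Among genes with mean signals between 2772 and 18904 the medians were 0.09 for the respiratory genes and 0.10 for all 1769 genes. The 3′ to 5′ signal ratio of the Actb control probe sets was 1.04 and 1.12 in the AID-silenced and control clones of pair 2, against 1.27 in both clones of pair 1, while that of Gapdh lay between 0.776 and 0.807 on all arrays. The part of brightness and RNA quality in the pair differences was not tested.

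**Figure D2:**
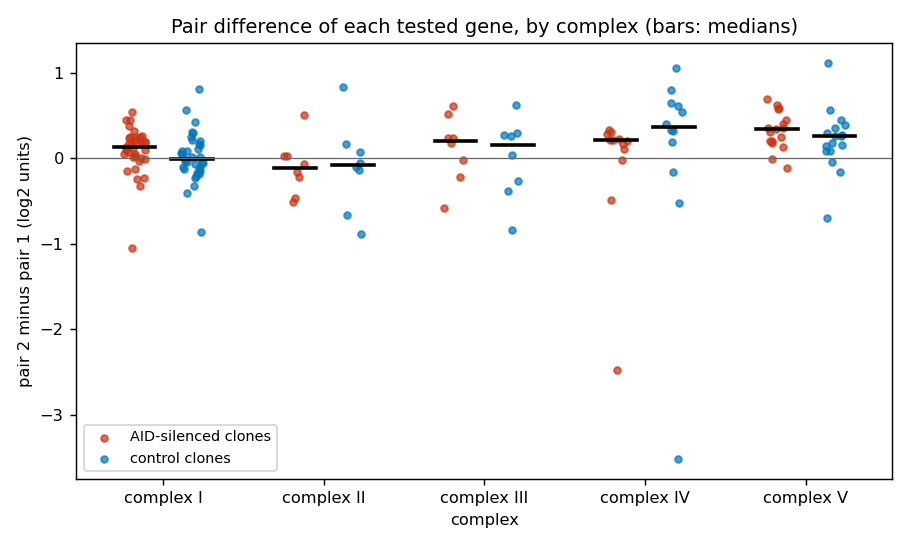
Each point is the pair 2 minus pair 1 difference of a tested gene in log2 units, from AID-silenced clones on the left and control clones on the right of each complex, and bars are medians. Complex IV has medians of 0.21 and 0.37 and complex V of 0.35 and 0.26, and the points far below the rest in complex IV are those of Cox6a2.

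By complex, complex V had 12 of 17 genes higher and 0 lower in both pair 2 clones, with a median difference of 0.25. Complex IV had 8 of 12 higher and 2 lower, with a median of 0.32. Complex I, with 15 of 35 higher and 6 lower, had a median of 0.06, and complex III, with 4 of 8 higher and 2 lower, had 0.14. Complex II had 3 of 8 higher and 5 lower and a median of -0.11, and the 5 lower ones were the 4 assembly factors and Sdhc. Over its 4 subunits alone, 3 were higher and 1 lower, and the median was 0.07. After quantile normalisation the medians were 0.09 for complex V, 0.14 for complex IV, -0.06 for complex I, -0.05 for complex III and -0.14 for complex II (-0.07 over its subunits alone), so only complexes IV and V kept a positive median under all 3 scalings tried. After quantile normalisation complex V had 8 genes higher and 2 lower in both pair 2 clones. With the deposited scaling the order of the medians was that of brightness. The median mean log2 signal was 12.2 in complex II, 12.8 in complex I and 13.3 in complex III. It was 13.6 in complex V and 13.8 in complex IV. The part of brightness in this order was not tested, nor was whether the complexes differ from each other.

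**Figure D3:**
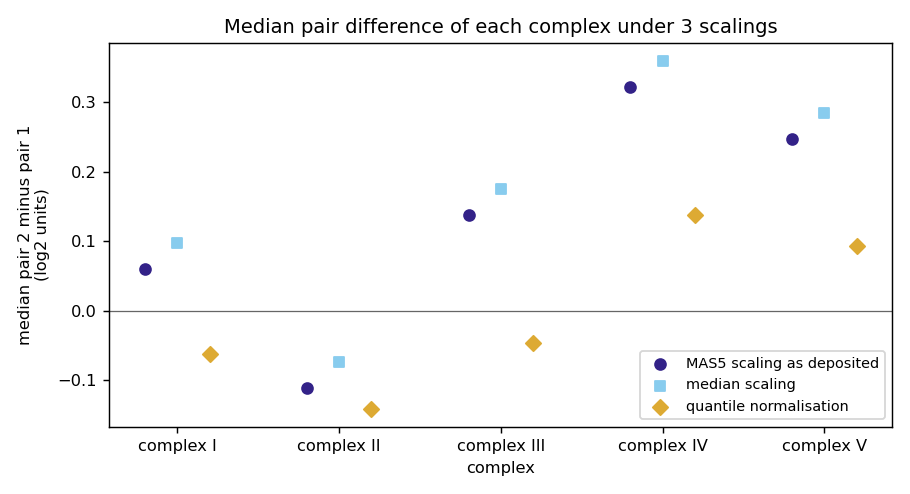
The median pair 2 minus pair 1 difference of the tested genes of each complex, in log2 units, is drawn for the deposited MAS5 scaling, median scaling and quantile normalisation. The medians of complexes I and III are positive under the first 2 and negative under the third. Those of complex II with its 4 assembly factors are below 0 throughout (0.07, 0.11 and -0.07 over its 4 subunits alone, not drawn). Those of complexes IV and V, the complexes with the brightest median signal, stay above 0.

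Among the genes of complex V, Atp5o, the stalk subunit that confers oligomycin sensitivity, had signals of 20956 and 27930 in the AID-silenced and control clones of pair 2, against 16483 and 12901 in those of pair 1. The pairs did not overlap, and the log2 difference was 0.73 ± 0.19 (SE, n = 2 per pair, limma adjusted p = 0.260). Atp5mpl, a small membrane subunit, was at 0.44 ± 0.16, and Atp5j at 0.46 ± 0.19, or 0.23 without control replicate 1. Atp5j and Atp5o both lie on chromosome 16, and the part of location in their differences was not tested. The c subunit of the rotor ring is encoded by 3 genes whose mature protein is the same. Atp5g1 had 16769 and 16660 in pair 2, against 11225 and 13060 in pair 1 (0.46 ± 0.13), and Atp5g3 had 29278 and 27877 in pair 2, against 22130 and 21339 in pair 1 (0.39 ± 0.10). Atp5g2 had 12587 and 15389 in pair 2, against 13572 and 12576 in pair 1, so that its pairs overlapped, unlike those of the other c subunit genes.

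In complex II, Sdhd had signals of 8721 and 9912 in the AID-silenced and control clones of pair 2, against 6156 and 5561 in pair 1. The pairs did not overlap, with a log2 difference of 0.67 ± 0.15 (SE, n = 2 per pair, limma adjusted p = 0.245), although its second probe set, with signals from 262 to 353, gave 0.23. The assembly factor Sdhaf1, which serves the iron-sulfur clusters of Sdhb, had 542 and 408 in pair 2, against 751 and 766 in pair 1 (-0.67 ± 0.23). Sdhaf3, which acts on Sdhb as well, had 604 and 571 in pair 2, against 867 and 917 in pair 1 (-0.59 ± 0.19). The pairs were separated in both genes, in the opposite direction to Sdhd.

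In complex III, Uqcrq had signals of 10215 and 7848 in pair 2, against 15233 and 14029 in pair 1 (-0.71 ± 0.16, limma adjusted p = 0.247). All 3 of its tested probe sets were lower in pair 2, by differences from -0.71 to -0.52. Uqcrh at 0.46 ± 0.18, the core subunit Uqcrc1 at 0.40 ± 0.15 and the small subunit Uqcr11 at 0.28 ± 0.18 were higher in both pair 2 clones. Without AID-silenced replicate 2 the difference was 0.23 for Uqcrh and 0.05 for Uqcr11, and without control replicate 1 it was 0.21 for Uqcrc1. Uqcr10, another small subunit, named here after its values were seen, differed by -0.20 between pairs. Its signals were 6121 and 4860 in pair 2, against 6184 and 6335 in pair 1. The pairs were just separated, and only the control clone of pair 2 stood apart. Its 3 tested probe sets disagreed in sign, with differences from -0.20 to 0.12, the positive one at signals of at most 338.

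In complex I, Ndufs8, an iron-sulfur core subunit, had signals of 13038 and 12807 in pair 2, against 9513 and 8641 in pair 1 (0.51 ± 0.13, limma adjusted p = 0.254). The mean difference was positive at all 6 of its tested probe sets, from 0.13 to 0.52. At 1 of like brightness the control clones went the other way, with 9773 in pair 2, against 10259 in pair 1. Ndufs3, a core subunit next to it in the enzyme's matrix arm, was at 0.34 ± 0.15, Ndufb1, an accessory membrane subunit, at 0.53 ± 0.24 and Ndufa4l2 at -0.68 ± 0.36. With 1 clone left out these were as low as 0.21 for Ndufs3 (control replicate 2) and 0.34 for Ndufb1 (control replicate 1), and -0.25 for Ndufa4l2 (AID-silenced replicate 2). Of the 35 tested complex I genes, only Ndufs8 had an unadjusted p under 0.05. A probe set shared by Ndufa11 and Ndufa11b, not used as a member, was at 0.46 (limma unadjusted p = 0.026, adjusted p = 0.320).

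In complex IV, Cox6c, a small membrane subunit, had signals of 19239 and 32327 in pair 2, against 16680 and 15505 in pair 1 (0.63 ± 0.24, limma adjusted p = 0.347). The control clone of pair 2 stood far above the other clones, and without it the difference was 0.26. Cox7a2l, a relative of Cox7a2, had 3778 and 3894 in pair 2, against 5293 and 5600 in pair 1 (-0.50 ± 0.15). Its 3 probe sets gave differences from -0.55 to -0.44. The single-symbol probe sets for Cox7c gave low signals, at most 142, and its difference was 0.47 ± 0.29. The highest signals of the set were 36357 for Cox7a2 and 32327 for Cox6c in the control clone of pair 2, and the highest on that array was 53071.

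Cox6a2 differed most between the pairs. It encodes the form of subunit 6a known from heart and skeletal muscle, whereas Cox6a1 encodes the form of most other tissues. Cox6a2 had signals of 1449 and 1073 in the AID-silenced and control clones of pair 2, against 8115 and 12434 in those of pair 1. Both pair 2 clones lay far below both pair 1 clones, and the groups of silenced and control clones overlapped. The log2 difference, pair 2 minus pair 1, was -2.99 ± 0.26 (SE, n = 2 per pair), a ratio of 0.126, with limma adjusted p = 0.200 and 0.0730 with the group as a second term. Across the alternatives the difference ran from -3.30 to -2.69 and the adjusted p from 0.0411 to 0.593, the lowest with AID-silenced replicate 2 left out and the highest with control replicate 1 left out. Only 6 of the 10475 tested genes, Cox6a2 included, were as far apart between the pairs.

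The second probe set of Cox6a2 gave 185 and 93.4 in pair 2, against 1416 and 2213 in pair 1, a difference of -3.59. Both probe sets thus ranked the clones alike. The 6 brown fat and muscle markers had summed signals of 143 and 133 in pair 2, against 191 and 187 in pair 1. Only Ckm, muscle creatine kinase, exceeded the filter signal on all arrays, and 4 lay at or below it on all. Ckm hardly differed, with 98.9 and 73.4 in pair 2, against 98.6 and 74 in pair 1. Myh7, a slow muscle myosin, had 14.8 and 14.9 in pair 2, against 30.5 and 57.3 in pair 1. At low signals, Myh6, Tnni3 and Acta1 were lower in both pair 2 clones. Ucp1, also low, was higher in both, with 3.3 and 8.7 in pair 2, against 2.1 and 5.5 in pair 1. The part of cells with such markers in the Cox6a2 difference was not tested. Cox6a1 had 25453 and 23387 in pair 2, against 21925 and 20540 in pair 1 (0.20 ± 0.11, limma adjusted p = 0.466). The AID-silenced minus control difference of Cox6a2 was -0.61 in pair 1 and 0.43 in pair 2.

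**Figure D4:**
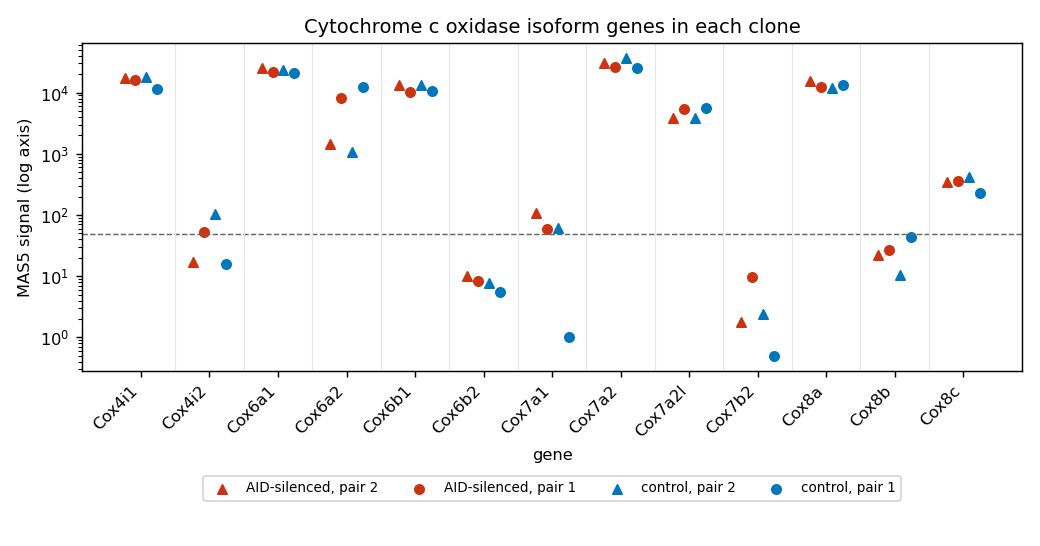
MAS5 signals of the complex IV isoform genes in each of the 4 clones are drawn on a log axis, red for AID-silenced and blue for control clones, triangles for pair 2 and circles for pair 1, and the dashed line is the mean signal of 49.4 needed to enter the test. Signals of different genes come from different probe sets and are not comparable. Cox6a2 is the gene above the line whose pair 2 clones (1449 and 1073) lie farthest below its pair 1 clones (8115 and 12434).

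Of the other isoform genes of complex IV, the general forms were measured at high signal and the tissue forms mostly were not. Cox4i1 had signals of 17116 and 17692 in pair 2, against 15913 and 11599 in pair 1, and Cox6b1 had 13138 and 13170 in pair 2, against 10398 and 10530 in pair 1. Both were higher in both pair 2 clones, with differences of 0.36 ± 0.17 and 0.33 ± 0.12. Cox7a2 was at 0.38 ± 0.12, and Cox8a at 0.07 ± 0.16 with overlapping pairs. Cox4i2, a lung and hypoxia form, had 17.0 and 103 in pair 2, against 53.6 and 16.1 in pair 1, and its values had no common order. Cox7a1, a heart and muscle form, had 109 and 61.3 in pair 2, against 58.9 and 1.0 in pair 1. Cox8b had 21.9 and 10.3 in pair 2, against 26.6 and 44.1 in pair 1. The testis forms Cox6b2 and Cox7b2 stayed at or below 10.2 on all arrays, and Cox8c, the third form of subunit 8, lay between 229 and 410. No fold is given for the genes below the filter.

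Genes that serve the same pathway were looked at as lists. Of 14 tested complex I assembly factors, 3 were higher and 4 lower in the AID-silenced clone of both pairs, and 1 was higher and 5 lower in both pair 2 clones. Of 23 assembly factors of complexes III and IV, 4 were higher and 9 lower in the AID-silenced clone of both pairs, and 9 were higher and 6 lower in both pair 2 clones. Of 4 ATP synthase assembly and inhibition genes, 1 was higher and 2 lower in each comparison, and of 17 tricarboxylic acid cycle genes, 3 were higher and 7 lower in the AID-silenced clone of both pairs. None of these genes was called in either comparison. Ttc19, a complex III factor, had signals of 463 and 638 in AID-silenced clones, against 850 and 955 in control clones, a difference of -0.71 ± 0.28 (SE, n = 2 per group, limma adjusted p = 0.9996). Tmem126b, which helps to build the membrane arm of complex I, had 195 and 214 in AID-silenced clones, against 129 and 101 in control clones (0.76 ± 0.32). Cox20, a complex IV factor, had 2181 and 1711 in pair 2, against 1184 and 948 in pair 1 (0.86 ± 0.22). These genes were separated between the groups compared.

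Of 7 tested electron carriers, 3 were higher and 1 lower in the AID-silenced clone of both pairs. Cyc1, the cytochrome c1 of complex III that the symbol rule does not cover, had signals of 11344 and 14344 in AID-silenced clones, against 12226 and 12942 in control clones, and Cycs, cytochrome c, had 10811 and 15345 in AID-silenced clones, against 11885 and 12347 in control clones. Both overlapped. Dhodh, the pyrimidine enzyme that feeds electrons to coenzyme Q, had 1052 and 902 in AID-silenced clones, against 1818 and 1127 in control clones (-0.55 ± 0.30). Of 12 coenzyme Q genes, 2 were higher and 4 lower in the AID-silenced clone of both pairs, and 3 were higher and 7 lower in both pair 2 clones. Of 11 tested biogenesis regulators 5 were higher and 1 lower in the AID-silenced clone of both pairs, among them Polrmt, the mitochondrial RNA polymerase, with 1874 and 2098 in AID-silenced clones, against 1509 and 1566 in control clones (0.36 ± 0.21). Ppargc1a, a coactivator of mitochondrial biogenesis, stayed at or below 20.5 on all arrays. The 1 mitochondrially encoded subunit with a single-symbol probe set, ND5, had 25352 and 19970 in AID-silenced clones, against 16386 and 23150 in control clones, with opposite differences of 0.63 in pair 1 and -0.21 in pair 2.

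Other sets of housekeeping genes were looked at in the same way. AID-silenced minus control, the median was -0.12 for the 34 tested constitutive proteasome subunits, -0.05 for the 42 tested cytosolic ribosomal protein genes and 0.0035 for the 76 mitochondrial ribosomal protein genes, against 0.06 for the respiratory genes. Pair 2 minus pair 1, the medians were 0.35, 0.18 and 0.07 in that order, against 0.11 for the respiratory genes. Whether these sets differ was not tested.

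Of the 86 genes, 46 had more than 1 tested probe set. In 17 of them the probe sets differed in sign between AID-silenced and control clones, and in 9 between pairs. The range exceeded 1 log2 unit together with a change of sign in 1 gene, Uqcrq.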

How the data were processed

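RNA from 4 clones was measured on Affymetrix mouse genome arrays, 1 array per clone. The deposited values are linear intensities, which the authors computed with MAS5 (per the submitters' processing notes), and the 2% trimmed mean of each array was checked and equalled 500. No further scaling was applied, and 0 columns were left unused. The arrays hold 45101 probe sets, from which 64 controls were dropped, and 22519, the upper 0.5 by mean log2(signal + 16), entered the fits. Each gene was read from its brightest single-symbol probe set, which gave 10475 tested genes, and 10 probe sets with several symbols, at least 1 matching the rule, were not members.

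Both comparisons were fitted with limma 3.58.1 (statmod 1.5.0, R 4.3.3; lmFit and eBayes with a trended, robust prior) on all 4 arrays, with p-values adjusted by Benjamini-Hochberg over all 22519 probe sets and a threshold of 0.05. P-values rest on the spread between single clones, which mixes clonal and technical variation. The pair numbers come from the labels, and differences of pair 2 from pair 1 correlated between AID-silenced and control clones (r = 0.306 and rho = 0.336 over 22519 probe sets, not independent of each other). The pair or group entered as a second term in an alternative, beside median scaling, quantile normalisation, other pseudocounts (1 and 64), no filter, a stricter filter (mean signal of 418), the mean of probe sets and leaving out each clone.

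The fit was tested on simulated data of 22519 probe sets, with independent noise on each array around the real means. The spread came from the AID-silenced against control fit, and no difference was shared within a pair. The counts therefore do not give the recovery in the real clones, whose pair differences correlated. Between AID-silenced and control clones, 9 of 50 planted changes were recovered at a log2 fold change of 1. At 2, 3 and 4 there were 48, 49 and 48 of 50, and false calls numbered 27 over all sizes. For pair 2 against pair 1 the recovered counts were 7, 45, 48 and 48, with 20 false calls. Genes named are, for each complex, up to 4 with the largest difference of the same sign in both pairs or groups, the isoform families, genes whose probe sets disagree, and up to 3 of each related list. Cyc1, Cycs, ND5, Ppargc1a and the markers were named outside that rule, with their values known. The members and lists were chosen with earlier results of these data known. The level of the silenced gene is not reported here. Figures were drawn with matplotlib 3.10.9.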

Additional observations from a re-analysis of the deposited data

Results flagged for a closer look

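In 3 of the 80 tested genes the AID-silenced minus control difference went in opposite directions in the 2 pairs, by at least 0.32 log2 units in each. Atp5md, a small membrane subunit of the ATP synthase, was at -0.94 log2 units in pair 1 and 0.38 in pair 2. Atp5o was at 0.35 in pair 1 and -0.41 in pair 2, and Cox6a2 at -0.61 and 0.43. Below the signal filter, Cox4i2 and Cox8b also went in opposite directions by that much, at signals of at most 103 and 44.1. With 1 clone of each kind in a pair, the difference between pairs was not tested.

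Probe sets with several symbols were outside the comparisons, and 3 of them were brighter in both AID-silenced than in both control clones by at least 0.32 log2 units. Of those that the annotation shares between Ndufb4, Ndufb4b and Ndufb4c the first had signals of 9205 and 8725 in AID-silenced clones, against 6453 and 6416 in control clones, a log2 difference of 0.48 ± 0.18 (SE, n = 2 per group, limma adjusted p = 0.9996). The second had 5831 and 5935 in AID-silenced clones, against 3982 and 3819 in control clones, a difference of 0.59 ± 0.19 (limma adjusted p = 0.9996, and 0.423 with the pair as a block). The limma unadjusted p-values of these probe sets were 0.038 and 0.019, and they were not counted among the tested genes. Which of the copies these signals come from cannot be told. The probe set shared by Ndufab1 and a pseudogene had 4244 and 5322 in AID-silenced clones, against 3883 and 3564 in control clones, a difference of 0.35.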

How the results depend on the processing

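No respiratory gene was called in either comparison at any setting, the pair or group as a replicate block included (0 calls in both), except Cox6a2, called between pairs without AID-silenced replicate 2 (log2 difference -3.21, adjusted p = 0.0411; pair 2 is then 1 array, assumed to vary like pair 1), so that calls between pairs ran from 0 to 1 over the clones left out. Leaving out each clone moved the median AID-silenced minus control difference between -0.016 and 0.14 and the median pair 2 minus pair 1 difference between 0.075 and 0.18. Quantile normalisation turned the median between pairs to -0.024, with 25 genes higher and 26 lower in both pair 2 clones. With the mean of probe sets, AID-silenced minus control differences changed sign for Cox6a2 (0.014), Sdha (0.014), Sdhaf2 (0.015) and Uqcrq (-0.23), and with quantile normalisation for Cox6b1 (0.0051). Over the clones left out they ran from -1.85 to 1.66 for Cox6a2, -0.18 to 0.16 for Cox6b1, -0.32 to 0.20 for Cox7a2l, -1.03 to 0.026 for Ndufa4l2, -0.090 to 0.016 for Sdhaf2, -0.0098 to 0.61 for Uqcrh and -0.17 to 0.67 for Uqcrq. The causes were not tested. With 1 clone left out, 18 of 19 named AID-silenced minus control differences and 9 of 20 named pair differences moved by over 1.5 times. Of 465 recomputed values of named genes, 448 kept sign and side of the threshold. This count does not measure robustness, because no named gene was called in the main fit and many were named for a shared sign. With 2 arrays per group, small differences could not be resolved.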
